A study of Mus musculus with 6 samples.

Results

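The tallest CTCF peaks of regulatory T cells from the mouse thymus were chosen by height, as peaks on chromosomes 1 to 19 that reached 10 times the median of their own list or more. Height is the maximum signal that the authors give for a peak, and a height divided by the list median is called a multiple below. Of 6 peak lists, 682 peaks passed, and merging those that shared at least 1 bp gave 209 tall regions, out of 90494 regions formed by all peaks of these chromosomes. The 6 regions that reached 100 times the median in some list, a class named satellite-like from its height alone, were kept apart from the other 203. The lists came from 3 libraries of wild-type (WT) cells and 3 of Cgas knockout (Cgas_KO) cells, labelled thymus Treg in both groups. The labels used here give no age, sex, strain or way of sorting, and do not say that replicates came from separate animals. The p-values therefore describe variation among libraries, possibly of technical origin.

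CTCF is a zinc-finger protein that binds a long DNA motif and stops the cohesin ring as it extrudes chromatin, which anchors loops and the borders of chromosome domains. Its strongest sites are known to be bound in most cell types. cGAS is an enzyme that senses DNA and activates STING, and regulatory T cells are the Foxp3-expressing T cells that restrain immune responses. In CUT&RUN a nuclease tethered by an antibody cuts the DNA around the bound protein, and sequences present in many copies in the genome but in few in its assembly are known to collect very high signal in such assays.

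All positions are in mm39, the build to which the sequence names of the lists belong. Genes, repeats, motifs and DNA sequence at the regions were not analysed here. The lists held 26047 to 30535 peaks on chromosomes 1 to 19. Read depth is unknown. Heights came in whole steps, and the list median was 13 to 14 steps in WT and 11 to 14 in Cgas_KO, so the 10-fold threshold lay at 110 to 140 steps. No list stood apart in the number of peaks of at least 100 times. Cgas_KO replicate 3 had the narrowest peaks (median 2568 bp, against 3211 to 3599 bp in the other lists) and the lowest median, 11 steps.

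All 209 tall regions had a peak in each of the 6 lists, but far fewer stayed above the threshold in Cgas_KO. WT lists had 184, 168 and 170 peaks above it and Cgas_KO lists 60, 59 and 41, and the groups did not overlap. Counted without the class of at least 100 times, WT lists held 167 ± 8.66 of them and Cgas_KO lists 46.7 ± 10.97 (mean ± SD over 3 lists each). Peaks of at least 100 times numbered 6 to 8 in WT and 6 to 7 in Cgas_KO. The threshold itself uses height, so these counts are a description and were not tested.

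**Figure D1:**
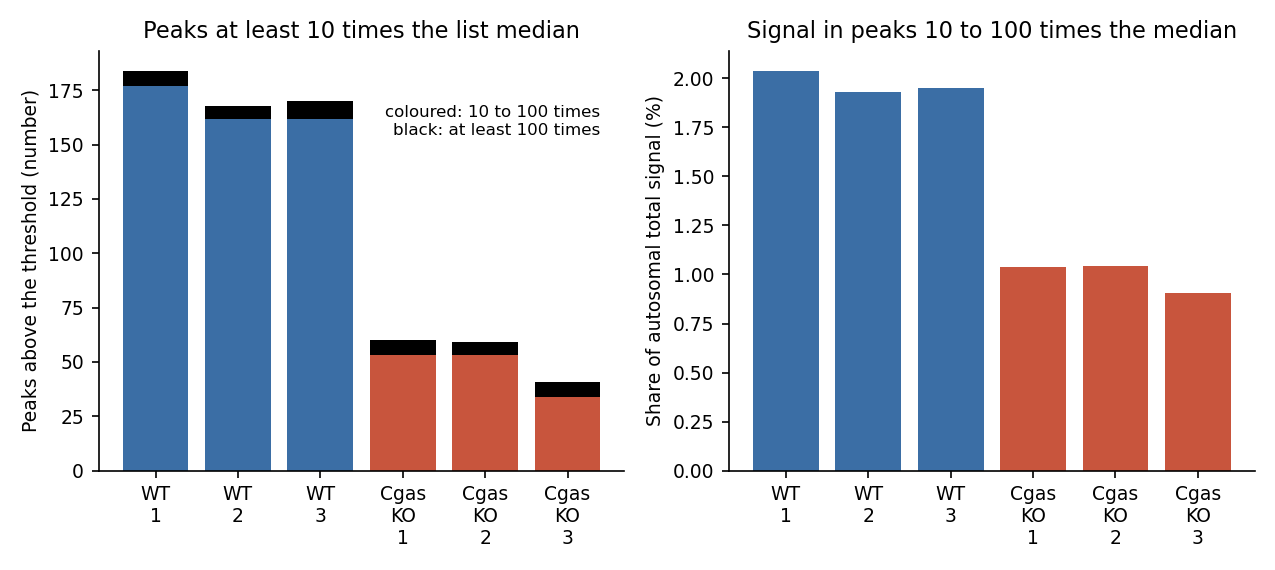
Left, peaks at least 10 times the list median per library (coloured, 10 to 100 times; black, at least 100 times); right, the share of autosomal total signal (%) in peaks of 10 to 100 times; bars are single libraries. WT lists reach 168 to 184 peaks and Cgas_KO lists 41 to 60, while the black part is 6 to 8 peaks in every list.

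The 6 regions of at least 100 times lay on 5 chromosomes and held more signal than all other peaks together. The first was chromosome 2 from 98491613 to 98498415, with multiples of 90256, 88168 and 87921 in WT and 92098, 90780 and 80746 in Cgas_KO. It carried 45.7% ± 0.154 of the total signal of chromosomes 1 to 19 for WT and 46.4% ± 0.238 for Cgas_KO (SD, n = 3). The heights of the groups overlapped, and the summit, the middle of the interval where signal is maximal, was at the same base in all 6 lists.

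Chromosome 12 from 3158946 to 3160982 followed, with 9678, 9452 and 9411 in WT and 9456, 9135 and 8304 in Cgas_KO. Chromosome 9 held 2 of the regions. The one from 35214275 to 35218175 reached 4819, 4623 and 4648 in WT and 4629, 4533 and 4081 in Cgas_KO, with all 6 summits at the same base. In both of these regions only the highest Cgas_KO value overlapped the WT values.

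The other region of chromosome 9, from 2999979 to 3040578, was the broadest of the class at 40600 bp and opened with the first peak called on that chromosome. It reached 1903, 1882 and 1859 in WT and 2049, 2029 and 1767 in Cgas_KO and carried 8.11% ± 0.0448 and 8.36% ± 0.0314 of the signal (SD, n = 3). Only the chromosome 2 region carried a greater share. The called peak was wide (39503 ± 1026 bp in WT and 38970 ± 424 bp in Cgas_KO).

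The last 2 were chromosome 6 from 103621926 to 103626568, with 1773, 1725 and 1719 in WT and 1967, 1976 and 1729 in Cgas_KO, and a chromosome 14 region at 3049980 to 3054397. The chromosome 14 region reached 837, 824 and 831 in WT and 920, 901 and 844 in Cgas_KO. On this scale it was the only one of the 6 in which the groups did not overlap, with Cgas_KO higher. In signal units as deposited, the Cgas_KO mean was 0.534 to 0.618 of the WT mean in the 6 regions. On that scale whole lists were lower too, with median heights of 2.66 to 2.76 in WT and 1.32 to 1.64 in Cgas_KO. Across the class, the Cgas_KO mean multiple over the WT mean multiple ranged from 0.940 to 1.09 with a median of 1.01. Together the 6 regions held 58.0% ± 0.200 of the signal for WT and 58.9% ± 0.304 for Cgas_KO (SD, n = 3). The summits of the 6 lists lay within 7.5 bp of one another in each of the 6 regions.

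**Figure D2:**
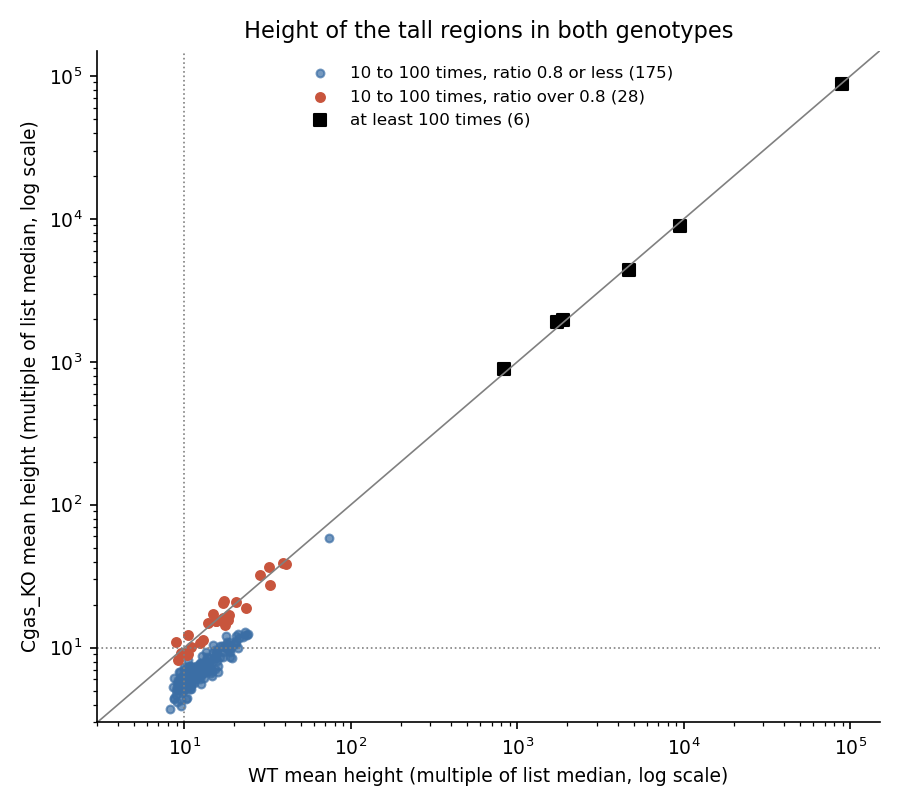
WT mean height against Cgas_KO mean height of the 209 tall regions, both as multiples of the list median on log scales; dotted lines mark the 10-fold threshold and the solid line equal heights. The 6 regions of at least 100 times (squares) follow the line of equal heights, 28 of the others (red) lie near it, and 175 (blue) lie below it.

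The 203 regions of 10 to 100 times had lower multiples in Cgas_KO for the most part. Over these regions the median multiple was 12.6, 12.3 and 12.1 in the WT lists and 7.64, 7.36 and 7 in the Cgas_KO lists. All 3 Cgas_KO lists lay below all 3 WT lists in 177 of the 203 and above them in 4, while 22 overlapped. Of the 4810 regions of chromosomes 1 to 19 held in all 6 lists, 35.5% had all Cgas_KO heights below all WT heights and 1.87% had them above. Because height chose the regions, nothing is read from that difference.

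Heights of regions held in all 6 lists were lower in Cgas_KO in general on this scale, by a median of -0.36 on the log2 scale. The median of the 203 was -0.80. It was -0.35 for the 4602 regions without a tall region. Among the 522 regions whose highest multiple was 5 to 10, the next band down, the Cgas_KO mean was 0.614 of the WT mean at the median, against 0.576 in the 203 and 0.752 in the 2818 regions of 2 to 5. The heights that form the bands also form the ratio, so nothing is read from this order.

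The ratio of Cgas_KO to WT height was not spread evenly among the 203. It was between 0.4 and 0.7 in most of them, with 104 between 0.5 and 0.6, then thinned out to 8 between 0.7 and 0.8, and the remaining 28 lay between 0.810 and 1.22. These 28, separated after the values were seen and not tested, reached a median ratio of 0.938. The other 175 had a median of 0.561. In the 2 to 5 band, 39.1% of regions had a ratio over 0.8. This share was 8.62% in the 5 to 10 band and 13.9% in the band of 10 to 100. The same heights form the bands and the ratio, so nothing is read from these shares.

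**Figure D3:**
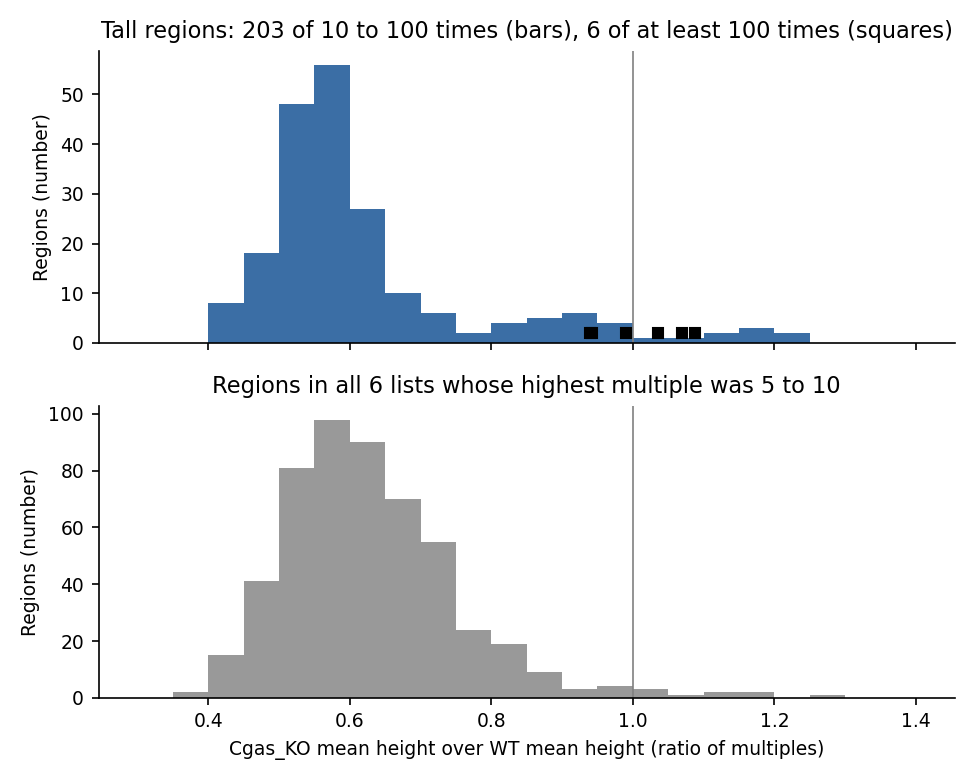
Number of regions by the ratio of Cgas_KO mean height to WT mean height, for tall regions (top; bars, 203 regions of 10 to 100 times; squares, the 6 of at least 100 times, placed by ratio only) and for the 522 regions whose highest multiple was 5 to 10 (bottom). Most tall regions have ratios between 0.4 and 0.7, 28 lie above 0.8, and the squares lie between 0.940 and 1.09.

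The direction for the class of at least 100 times depended on what height was divided by. Divided by the median height of peaks in regions held in all 6 lists, the 6 regions had a median ratio of 1.25, the 203 of 0.715 and the 28 of 1.17. Counted in steps, these were 0.970, 0.546 and 0.893. In signal units as deposited, they were 0.575, 0.324 and 0.530. The sets of 28 and 175 were split by the ratio itself, so their contrast is set by that split on any scale. The 203 were lower in Cgas_KO in 175 to 203 cases across the 5 scales.

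Regions are named next by their mean multiple over the 6 lists, a rank into which Cgas_KO heights enter, so the ratios of the highest are no finding. By WT mean, 7 of the 19 regions of 20 to 100 times had a ratio over 0.8. The region after the class of at least 100 times was chromosome 9 from 124252499 to 124259720, with 78.1, 71.2 and 72.7 in WT and 58.1, 61.6 and 54.6 in Cgas_KO. Its groups did not overlap, and its ratio was 0.785. Chromosome 17 from 40152103 to 40160797 followed, with 41.6, 38.6 and 42.9 in WT and 40.6, 36.9 and 37.6 in Cgas_KO. Its groups overlapped, and its summits spanned 1458 bp.

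Chromosome 4 from 118403407 to 118406917 had 39.1, 42.2 and 35.6 in WT and 43.1, 37.7 and 35.8 in Cgas_KO, so that the groups overlapped fully. On chromosome 17, 3 of the 28 regions lay within 13524819 to 13811895. The first, from 13524819 to 13547256, reached 31.7, 35.2 and 30.3 in WT and 39.1, 39.1 and 31.0 in Cgas_KO. The second, from 13755936 to 13775956, reached 28.6, 28.0 and 29.1 in WT and 35.4, 35.6 and 25.7 in Cgas_KO. In both, Cgas_KO replicates 1 and 2 were above all WT lists and replicate 3 was not. The third, from 13805358 to 13811895, had 15.4, 15.5 and 15.8 in WT and 16.4, 15.3 and 14.7 in Cgas_KO, and its groups overlapped.

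Chromosome 15 from 74950867 to 74963670 had 34.1, 31.6 and 32.3 in WT and 30.9, 26.6 and 24.3 in Cgas_KO. Chromosome 14 from 125038127 to 125039677, one of the narrowest at 1551 bp, had 22.7, 24.6 and 23.2 in WT and 20.6, 20.2 and 16.4 in Cgas_KO. In both regions every Cgas_KO list was below every WT list, by less than in the bulk of the regions (ratios of 0.833 and 0.810). Chromosome 11 from 108901291 to 108905144 had 17.7, 19.8 and 24.1 in WT and 23.5, 20.9 and 17.7 in Cgas_KO, and its groups overlapped.

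As multiples of the list median, all 3 Cgas_KO lists were above all 3 WT lists in 4 regions of 10 to 100 times. This order depended on the scale. In signal units as deposited, every Cgas_KO list was below every WT list in all 203 regions. The list medians were also lower on that scale, and the share over all regions was not counted, so nothing is read from this. Chromosome 9 from 124018586 to 124023669 had 18.6, 16.5 and 16.9 in WT and 20.9, 22.6 and 20.4 in Cgas_KO. Chromosome 13 from 120057020 to 120081256, 24237 bp wide, had 17.6, 17.3 and 16.6 in WT and 19.5, 21.1 and 21.0 in Cgas_KO. These 2 completed the 10 highest. Chromosome 13 from 74674416 to 74680570 had 14.9, 15.8 and 13.8 in WT and 17.4, 18.0 and 15.8 in Cgas_KO. The remaining one, on chromosome 9 at 123699764 to 123702717, was the one of the 209 above the threshold in all 3 Cgas_KO lists (11, 11.6 and 10) and in no WT list (9.14, 8.77 and 8.86). Cgas_KO replicate 3 was exactly at the threshold there. That threshold was 110 steps in its list, against 130 to 140 steps in the WT lists.

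Of the 203 regions, 28 were above the threshold in all 6 lists, and 18 of these belonged to the 28 of higher ratio. The rest of them were tall enough in WT to stay above at a lower height. Chromosome 5 from 38461441 to 38468877 was the highest of these in WT after the chromosome 9 region named first. It had 24.2, 24.7 and 23.4 in WT and 13.7, 12.6 and 10.8 in Cgas_KO. Chromosome 11 from 83328795 to 83337313 had 22.1, 25.5 and 23.4 in WT and 13.5, 12 and 11.2 in Cgas_KO, a similar drop without overlap.

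Falling below the threshold in Cgas_KO was the most common pattern. In 74 regions all 3 WT lists were above it and no Cgas_KO list was, in a further 67 only 1 or 2 WT lists were, and in 30 all WT lists and 1 or 2 Cgas_KO lists were. Of the remaining 4, 2 were above it in 1 list of each genotype and 2 in more Cgas_KO than WT lists. The 74 regions did not vanish in Cgas_KO. Their multiples there were 4.09 to 9.82, and 64 of them kept at least 5 times the median in all 3 Cgas_KO lists. Their median WT multiple was 12.6 and their median ratio 0.552. Both the 74 and the 67 entered the set through WT lists alone. Their place below the threshold in Cgas_KO and their low ratios are built into that choice, so nothing is read from them. With the median of regions held in all lists as reference, the tall regions numbered 48 and those of this pattern 10.

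The highest of the 74 in WT was chromosome 6 from 90581221 to 90586900, with 16.9, 19.2 and 20.4 in WT and 9.14, 9.14 and 7.73 in Cgas_KO. Chromosome 8 from 87309875 to 87314444 had 16.6, 15.4 and 17.3 in WT and 9.36, 9 and 7.45 in Cgas_KO. Chromosome 18 from 65622294 to 65624969 had 16.1, 15.4 and 16.4 in WT and 7.14, 6.43 and 6.64 in Cgas_KO. Among the 10 highest this one dropped farthest, to a ratio of 0.422, and its replicates lay close together in both groups.

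Chromosome 10 from 57322384 to 57325947 varied more, with 19.5, 12.5 and 15.6 in WT and 9.50, 7.14 and 5.73 in Cgas_KO. Chromosome 11 from 100181628 to 100193409 had 15.6 in each WT list and 8.36, 7.79 and 8 in Cgas_KO. It was one of a pair, since the neighbouring region from 100168789 to 100175638 lay 5989 bp away. That neighbour was also among the 74.

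The other 5 of the 10 highest had WT means of 15.1 to 15.5 and Cgas_KO means of 7.05 to 8.80. The region on chromosome 2 spanned 25111595 to 25121374, and that on chromosome 17 spanned 78909059 to 78913479. Next were a region on chromosome 19, at 5615021 to 5622010, another on chromosome 1, at 86423420 to 86439318, and a second on chromosome 19, at 10953027 to 10962552. In these last 3, a single Cgas_KO list came to within 0.3 of the threshold. It was replicate 3 in the first of those, which is the list of lowest median, and in the chromosome 1 region, and replicate 2 in the last.

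**Figure D4:**
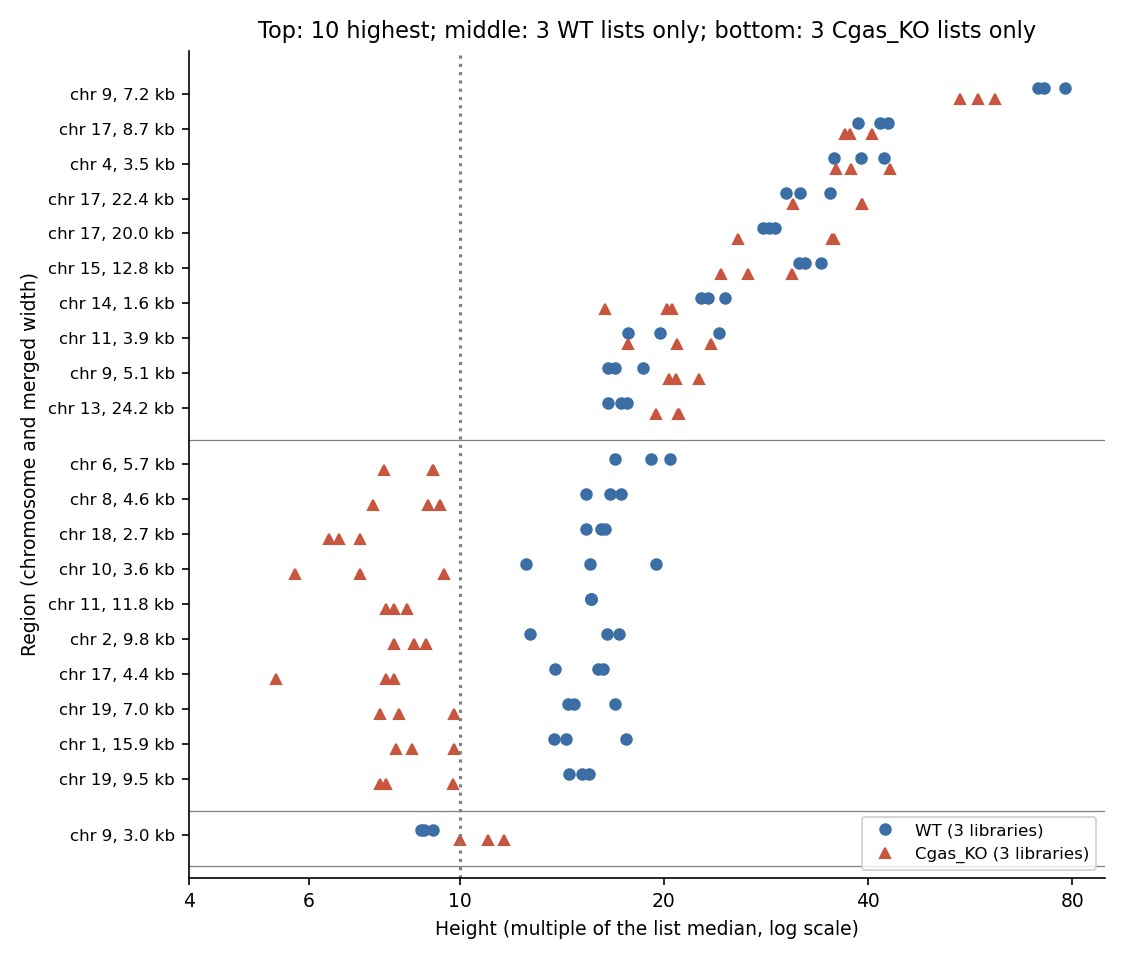
Height of the named regions in each library, as a multiple of the list median on a log scale (circles, WT; triangles, Cgas_KO; dotted line, the 10-fold threshold); regions are labelled by chromosome and merged width. The top block is ranked by the mean over all 6 lists, in the middle block every WT library is above 10 and every Cgas_KO library below it, and the bottom region shows the reverse, with Cgas_KO replicate 3 at exactly 10.

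The lowest ratio of the 203, 0.410, was at chromosome 7 from 80811382 to 80814264, with 7.57, 9.08 and 11.9 in WT and 3.93, 3.93 and 3.82 in Cgas_KO. It entered the set through WT replicate 3 alone. Many regions sat at the threshold in this way. The highest multiple was under 11 in 30 of the 209, and 48 regions outside the set reached at least 9. Just inside was chromosome 12 from 24755962 to 24761468, with 9.50, 10 and 8.07 in WT and 6.5, 4.86 and 4.18 in Cgas_KO. Just outside was chromosome 4 from 152512483 to 152526301, with 9.93, 6.46 and 9.07 in WT and 5.14, 4.50 and 5.18 in Cgas_KO.

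Cgas_KO replicate 3 was the lowest of its genotype in 116 of the 203 regions, replicate 1 in 45 and replicate 2 in 42. Without replicate 3 the set held 209 regions, and 74 of them were above the threshold in all WT lists and in no remaining Cgas_KO list. No region was above it in a single Cgas_KO list and no WT list, so this omission could not lower either number. The part of replicate 3's low median in the values was not tested.

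Total signal, which sums over the peak, was taken as a share of the list's total. For the 203 regions this share was also lower in Cgas_KO, but its scale is unlike that of the multiples. Peaks of 10 to 100 times held 2.04%, 1.93% and 1.95% of the total in the WT lists and 1.04%, 1.04% and 0.907% in the Cgas_KO lists, but fewer peaks were counted there. Over the same 203 regions in every list, WT lists held 2.26% ± 0.00813 and Cgas_KO lists 1.82% ± 0.0139 of the total (SD, n = 3). The 175 regions, split off by their height ratio, held 1.52% ± 0.0167 and 1.06% ± 0.0122. The 28 regions of higher ratio held 0.744% ± 0.0109 and 0.763% ± 0.00287. Outside the 6 regions of at least 100 times, the 203 accounted for 5.39% ± 0.0447 of the remaining signal in WT and 4.42% ± 0.0601 in Cgas_KO. Shares followed the choice by height and were not tested. With the median of shared regions as reference, the share in peaks of 10 to 100 times was 0.0614 percentage points higher in Cgas_KO. That reference changes both the threshold and the multiples, and the cause of the change in sign was not tested.

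Called width was not itself used in the choice and was not found to differ between genotypes. The regions compared were chosen by height, however, and 74 and 67 of them entered through WT lists alone. The genotypes were thus not chosen alike, and the width tests hold only for regions picked in this way. The tallest peak of each of the 209 regions had a median width of 3542, 3481 and 3445 bp in WT and 3245, 3732 and 2682 bp in Cgas_KO. The means were 3489 ± 49.0 and 3220 ± 525 bp (SD, n = 3), a difference of -270 bp (two-sided exact permutation test, p = 0.5, smallest possible 0.1). The groups overlapped, and without Cgas_KO replicate 3 the difference was -0.833 bp.

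Region by region, limma on log2 width over the 4810 regions held in all 6 lists called 2 with a Benjamini-Hochberg adjusted p under 0.05, 0.0416% of those tested, and neither was a tall region. In this table the 209 lay in 208 regions, since 1 region held a pair of them. These regions were merged from all peaks, so a summed width can exceed the tall region whose position is given. The lowest limma adjusted p among the 208 was 0.920. At an unadjusted p under 0.05 there were 8, all narrower in Cgas_KO, 3.85% of the 208 against 4.91% of all regions tested. Of the 236 such regions among all tested, 152 were narrower and 84 wider. With width over the library's median, an unplanned setting, 7 of the 208 were narrower and 5 wider at that p. Without Cgas_KO replicate 3, 6 were narrower and 4 wider. In the main fit the median log2 difference was -0.08 over the 208 and -0.07 over all.

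In 17 of the 208 all Cgas_KO lists were narrower than all WT lists, where 6.34% of all regions were, and in 8 they were wider, where 4.12% were. The smallest p were at chromosome 7 from 84425915 to 84431820, where summed called widths were 5025, 3546 and 5906 bp in WT and 3048, 1644 and 1860 bp in Cgas_KO. The log2 difference there was -1.17 (SE 0.38, limma adjusted p = 0.920). Next came chromosome 5 from 77604870 to 77614129, at -1.24 (SE 0.42, limma adjusted p = 0.920), and chromosome 10 from 24185336 to 24190938, at -0.95 (SE 0.36, limma adjusted p = 0.920). Toward wider peaks the smallest p was at chromosome 14 from 57916608 to 57918655. Summed widths there were 1862, 1826 and 2048 bp in WT against 3507, 2397 and 3913 bp in Cgas_KO. After that region came one of chromosome 15, at 81843542 to 81847396, then the chromosome 9 region at 123699764. Their log2 differences were 0.75, 0.75 and 0.79, at a limma adjusted p of 0.920 each. The last of them is the region above the height threshold in Cgas_KO lists alone.

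Peaks of 10 to 100 times had a larger median width than peaks under 10 times in 5 of the 6 lists. The medians were close in WT replicate 1 (3580 and 3559 bp) and WT replicate 3 (3632 and 3599 bp). In single lists the median width of peaks of 10 to 100 times was 3502 to 3632 bp in WT and 3100 to 3958 bp in Cgas_KO, against 3209 to 3599 bp and 2568 to 3511 bp for peaks under 10 times. The gap was widest in Cgas_KO replicate 3, at 3392 and 2568 bp, and Cgas_KO replicate 1 had the reverse order, at 3100 and 3258 bp. Merged regions were 988 to 48849 bp wide, with a median of 5084 bp, and 27 reached 10 kb. In 65 of the 209 some list had more than 1 peak in the region.

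The widest of all was chromosome 8 from 19741807 to 19790655, at 48849 bp, with multiples of 8.79, 10.8 and 11.9 in WT and 6.5, 5.64 and 6.27 in Cgas_KO. A neighbour 28904 bp away, from 19819560 to 19845865, was 26306 bp wide, with 11.6, 12.1 and 10.1 in WT and 6.93, 6.86 and 7.64 in Cgas_KO. Both lay below the threshold in every Cgas_KO list. Chromosome 6 from 47713955 to 47751649, 37695 bp wide, stayed above it in every list, at 17.4, 17.8 and 17.4 in WT and 16.6, 14.1 and 12.2 in Cgas_KO. The narrowest was chromosome 7 from 144894231 to 144895218, at 988 bp, with 9.64, 11.2 and 10.6 in WT and 9.21, 8.86 and 8.91 in Cgas_KO, a ratio of 0.858.

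The position of the summit was held closely across lists, also where height was lower in Cgas_KO. The span of the 6 summits had a median of 114 bp over the 209 regions, and it was under 500 bp in 195 of them. Among all regions held in the 6 lists the median span was 688 bp, and in the band of 5 to 10 times it was 154 bp. Span went with height, so this is a description. For the 74 regions above the threshold in WT alone, the median span was 147 bp and the median WT and Cgas_KO summits lay 35.2 bp apart at the median.

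The 4 largest spans were in regions of 9854 to 48849 bp. At chromosome 15 from 100353601 to 100368966 the summits spanned 11122 bp, at the chromosome 6 region of 37695 bp they spanned 4890 bp, and at chromosome 8 from 19741807 to 19790655 they spanned 4216 bp. Other broad regions had small spans, such as 6 bp at the chromosome 9 region of 40600 bp and 20.5 bp at the chromosome 13 region of 24237 bp. Chromosome 10 from 3058220 to 3068073 had a span of 3680 bp. Its height was even across genotypes, at 16.5, 16.4 and 17.9 in WT and 17.3, 15.0 and 14.5 in Cgas_KO.

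**Figure D5:**
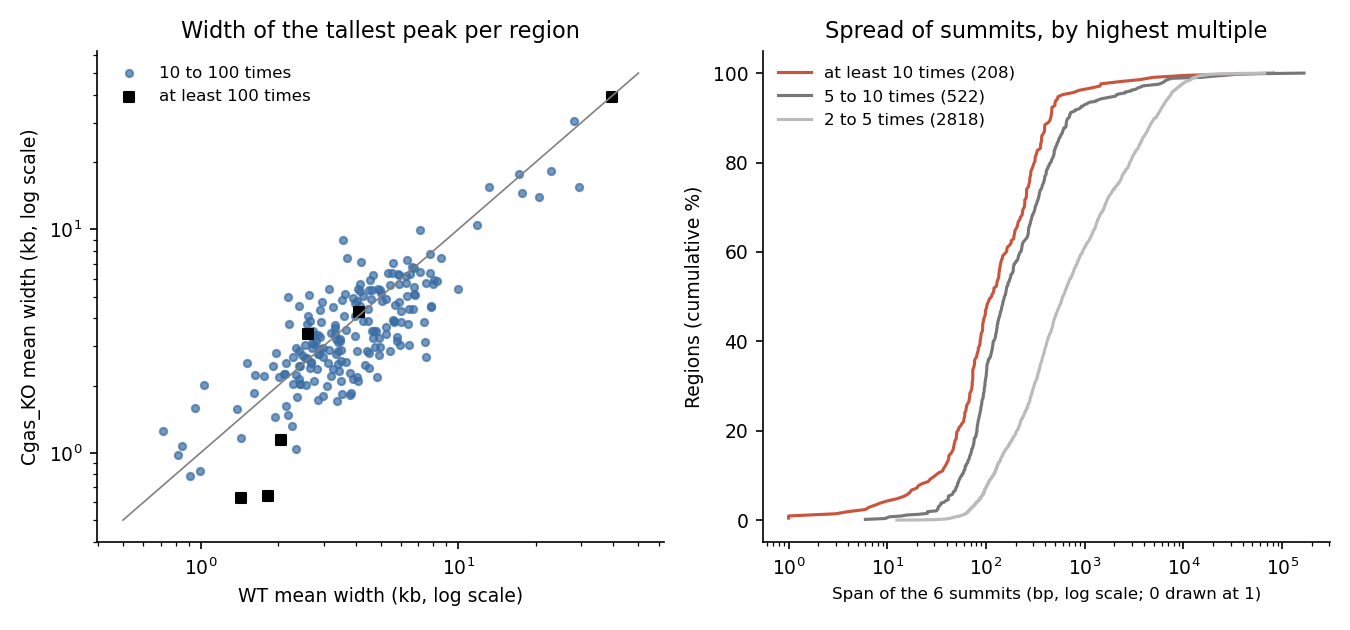
Left, mean width of the tallest peak in each tall region in WT and Cgas_KO (kb, log scales; squares, the 6 regions of at least 100 times; the line marks equal widths); right, the cumulative share of regions by the span of their 6 summits (bp, log scale), by highest multiple. Points scatter on both sides of the line, and regions of at least 10 times have a median span of 114 bp.

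The total signal of a peak as a share of its height times its width, which is 100% for a block of even signal, had a median of 26.3% in WT and 27.2% in Cgas_KO in the 28. It was 15.1% and 19.2% in the 175. Peaks of the 28 also had a smaller median WT width, 2308 bp against 3908 bp in the 175. The 28 were mixed in width, since 7 of their merged regions reached 10 kb, against 19 of the 175. The highest share was at chromosome 17 from 40152103 to 40160797, 62.4% in WT and 63.2% in Cgas_KO. Both height and width enter this share, and it was not tested.

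Tall regions were found on all 19 chromosomes, unevenly. Chromosome 19 had 13 among 2520 regions, 5.16 per 1000, followed by chromosome 15 with 4.13 and chromosome 11 with 3.72. Chromosomes 3, 13 and 1 had the fewest, at 0.763, 0.928 and 1.02 per 1000. Of the 209, 16 had another tall region within 100 kb, and the median distance to the nearest was 2250558 bp.

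Within 200 kb of the first peak of a chromosome lay 7 tall regions, and 3 of them belonged to the 6 of at least 100 times. They were the regions of chromosome 12 from 3158946, chromosome 9 from 2999979 and chromosome 14 from 3049980 already given. Of the other 4, chromosome 11 from 3132007 to 3151183 had 16.9, 16.3 and 18.4 in WT and 15.6, 16.6 and 16.3 in Cgas_KO. Chromosome 2 from 3049980 to 3052282 had 11.8, 8.85 and 9.50 in WT and 10.4, 9.36 and 8 in Cgas_KO. In both, as in the chromosome 10 region above, the groups overlapped. Chromosome 17 from 3129039 to 3137622 was the exception, with 14.2, 14.3 and 13.2 in WT and 9.07, 8.93 and 7.27 in Cgas_KO, a ratio of 0.606.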

How the data were processed

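CTCF CUT&RUN peak lists of 6 libraries, 1 per library and not pooled, fell into 2 groups by labelled genotype. The tools in the submitters' processing notes include Bowtie2, an aligner, and SEACR 1.3, a peak caller, with both mm10 and mm39 as builds. The names of the lists carry 0.01, non and stringent. The sources used here name no control library or scaling. Each deposited list holds signal on the authors' scale, summed over a peak in its column 4 and maximal in column 5. Maxima under 200 steps were whole multiples of 1 step within 0.01 step for 100% of peaks.

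Multiples, merging and shares were computed in Python 3.11.15 (numpy 2.4.6, pandas 2.3.3), and figures with matplotlib 3.10.9. Where a list had several peaks in a region, the tallest gave its height, width and summit, and limma 3.58.1 (R 4.3.3) used summed widths with Benjamini-Hochberg adjustment at 0.05. Exact permutation tests were two-sided over 20 assignments. Scripts were tested on simulated data. Read depth is unknown, which leaves values without counting intervals, and 3 libraries per group limit the precision.

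The members, classes and tests were chosen with earlier results of these data known. Named were all regions of at least 100 times, the 10 highest of the rest, up to 10 regions per genotype above the threshold in its 3 lists alone, the regions at the threshold, and the 3 smallest p each way for width. Other regions were named after their values were seen, namely the narrowest and widest, those of lowest ratio or largest summit span, those above the threshold in all lists, and those near a chromosome's first peak. Alternatives were other thresholds, references and merging, X and Y, total signal, omission of single libraries and a replicate block.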

Additional observations from a re-analysis of the deposited data

How the results depend on the processing

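With 20 times the median as threshold there were 34 tall regions, 7 of them above it in all WT and no Cgas_KO lists, and the difference in the share of signal was -0.0846 percentage points. With the median of regions in all lists as reference there were 48, 10 of the WT kind and 3 of the reverse, and the share difference turned to 0.0614. With total signal in place of height there were 87, of which 10 reached 100 times, 11 were of the WT kind and 0 of the reverse. The cause was not tested beyond what each setting builds in. With X and Y there were 229; this setting added the tall peaks of both and also moved the median of WT replicate 3 and Cgas_KO replicate 2 from 14 to 13 steps. Without 1 library there were 191 to 210 tall regions, 74 to 87 of the WT kind and 1 to 2 of the reverse, the second appearing without WT replicate 3. The share difference was then -1.001 to -0.933 against -0.978, and the width difference -526 to -0.833 bp. With the max-signal interval in place of the peak the width difference turned to 3.33 bp. Limma width calls were 0 on ranks, 0 among regions with 1 peak in each list and 1 to 2 without 1 library (2 only without Cgas_KO replicate 2). They were 2 with width over the library's median, an unplanned setting. Same-numbered libraries did not deviate together (r -0.0195, -0.0191 and -0.0169 over heights), and a replicate block gave 2 width calls, -270 bp (exact sign-flip p = 0.5, smallest possible 0.25) and -0.978 points, so it changed no call.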

Other observations

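Tall peaks also occurred outside chromosomes 1 to 19, measured against the same list medians. Chromosome X had 2 to 4 peaks of at least 10 times in WT and 3 to 5 in Cgas_KO, and its tallest reached 36.8 to 39.5 and 37.6 to 38.8. Chromosome Y had 1 such peak in every list, at 24.6 to 27.0 in WT and 17.0 to 20.1 in Cgas_KO, without overlap. The mitochondrial sequence had 1 in every list, at 25.0 to 34.1 in WT and 26.3 to 34.6 in Cgas_KO. Unplaced or unlocalised scaffolds had 4 in every list, the tallest at 623 to 636 in WT and 578 to 666 in Cgas_KO. Of these 4, 2 reached 100 times the median in each WT list and 1 in each Cgas_KO list.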
